A study of Drosophila melanogaster with 31 samples.

Results

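The Cpr genes of Drosophila melanogaster encode cuticle proteins and are named for their place on the cytological map of the polytene chromosomes, so that Cpr49Ae and Cpr49Ag are neighbours in band 49A. The members described here were all RefSeq genes whose symbol starts with Cpr and a digit. The rule found 70 genes, with 95 RefSeq transcripts, among 16885 genes and transposons in the deposited tables, and the estimated counts of all transcripts of a gene were summed. The study asked what the nucleolar protein Modulo (Mod), the fly homologue of Nucleolin, does in transposon silencing and in development, and its mRNA libraries hold 4 groups of heads and 3 groups of ovaries with 3 libraries each. Partial loss of function comes from mod07570, in which a P element has inserted, and complete loss from modL8, which lacks a stretch near the end of chromosome arm 3R. Homozygotes of either die, so mod07570/L8 flies, which are viable, stand as the mod mutants. The head groups were mod07570/L8, mod07570/+, and heads with and heads without ectopic eye outgrowths (EEO). GEO's labels give both EEO groups the genotype mod07570/L8, whereas the study describes the flies scored for EEO as offspring of mod07570/L8 mothers and fathers with KrIf-1, an allele that misexpresses the transcription factor Krüppel and reduces the eye. The ovary groups were mod07570/+, modL8/+ and mod07570/L8. The age of the flies is not given in the sources used here.

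Most Cpr proteins share the Rebers and Riddiford consensus, a stretch that binds chitin, and they form the cuticle together with chitin fibres. Epidermal cells secrete the cuticle in layers, largely around each moult, and in the adult head it makes up the capsule, the bristles, the mouthparts, the fore part of the gut and the lenses of the eye. Cpr72Ec and Cpr66D are known as constituents of the corneal lens, where they are found with Crys and retinin. For most other members nothing more specific than a structural cuticle role is assumed here. The ovary makes no cuticle, and its eggshell is built from other proteins.

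Each library held between 12820086 and 22695680 estimated counts. Levels are given relative to that total (cpm, the usual scaling of counts to library size), and where genes are compared with each other as FPKM, the deposited value that is also scaled to transcript length. Library identity was checked against known genes. In heads, mod was at 18.2 to 20.0 cpm in the mod07570/L8 libraries, 58.7 to 122 cpm in the mod07570/+ libraries and 37.1 to 52.8 cpm in the 6 EEO and no-EEO libraries. In ovaries it was at 10.3 to 12.3 cpm in mutants, 324 to 342 cpm in mod07570/+ and 449 to 462 cpm in modL8/+. The 8 photoreceptor genes summed to 16947 cpm or more in every head library and to at most 160.1 cpm in every ovary library, and the 4 follicle cell genes to 2480 cpm or more in every ovary library and to at most 6.77 cpm in heads. The 6 EEO and no-EEO libraries differed from the other 6 head libraries in sex markers. The yolk protein gene Yp1, which is expressed in the female fat body, was at 0.969 to 6.10 cpm in them and at 27338 to 57495 cpm in the others, and the noncoding RNA roX1, which coats the X in males, had 666 to 1152 cpm against 2.98 to 4.55 cpm. In the mod07570/+ head replicate 2, the germline gene osk stood at 216 cpm, compared with 3.35 cpm or less in the other 11 head libraries. A pair of head libraries stood apart for cuticle genes, as described below.

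A minority of the Cpr genes were on throughout the heads. In all 12 head libraries 19 of the 70 genes reached 1 cpm, another 15 did so in some of them, and 36 stayed under 1 cpm in all 12. The count of genes at 1 cpm or more was 20 to 24 in the mod07570/L8 libraries, 21, 21 and 29 in mod07570/+, 33, 28 and 28 in heads with EEO, and 29, 30 and 29 in heads without EEO. No count was listed for 7 genes in any of the 21 libraries, namely Cpr35B, Cpr49Ad, Cpr65Aw, Cpr65Ax1, Cpr65Ax2, Cpr65Ay and Cpr67Fa1, and 28 more had some counts but under 1 cpm everywhere. At the depth of these libraries 3 counts, the floor used here, are worth 0.132 to 0.234 cpm. Levels below the floor of a library rest on fewer than 3 counts.

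The genes that were on did not follow the chromosomal groups of the family as blocks. Chromosome arm 3L holds 35 members, of which 13 reached 1 cpm in a head library, and 2R holds 21, of which 14 did. All 5 members on 3R reached that level, as did 2 of the 4 on the X and none of the 5 on 2L. In the group of 7 genes at 65A, Cpr65Au had a mean of 129.7 cpm over the heads while the other 6 stayed under 1 cpm. At 72E, Cpr72Ec had a mean of 133 cpm and its 2 neighbours stayed under 1 cpm, at 47E 3 of 7 genes were on, and at 49A 5 of 8 were. None of the 3 members each at 65E, 67F and 78C reached 1 cpm in heads, whereas all 3 at 62B and both at 97E did.

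A few genes made up most of the Cpr RNA. The 5 members with the highest mean cpm, Cpr100A, Cpr67B, Cpr72Ec, Cpr65Au and Cpr49Ae, held between 48.1% and 75.4% of the summed Cpr cpm of a head library. Per length, the order by mean FPKM over the 12 head libraries was Cpr65Au at 677, Cpr67B at 168, Cpr100A at 165, Cpr49Ae at 104, Cpr72Ec at 81.7, Cpr62Bc at 68.1, Cpr97Eb at 56.8, Cpr57A at 56.1, Cpr62Bb at 51.4 and Cpr49Ag at 44.0. The FPKM of Cpr65Au in its lowest head library exceeded that of Cpr67B in its highest, whereas each of the other neighbours in this order overlapped over the 12 libraries. Cpr65Au has 2 annotated transcripts of 526 and 453 bases, which took 42.7% and 57.3% of its estimated counts. It is annotated over the antisense RNA gene asRNA:CR46005, and since the libraries did not mark the strand, reads from both cannot be told apart.

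The leading genes fell into a steady and a variable set. Cpr65Au, the most abundant member, was at 81.9, 81.2 and 88.6 cpm in the mod07570/L8 heads, at 70.3, 53.1 and 76.8 cpm in mod07570/+, at 152, 190.3 and 186 cpm in heads with EEO and at 185, 199.9 and 191 cpm in heads without EEO. Cpr67B was at 83.8, 102 and 99.9 cpm in mod07570/L8, at 114, 111 and 153 cpm in mod07570/+, at 193, 167 and 174 cpm with EEO and at 129, 144 and 129.7 cpm without EEO. Cpr57A was at 16.6, 18.3 and 19.8 cpm in mod07570/L8, at 13.1, 14.5 and 14.1 cpm in mod07570/+, at 35.0, 32.1 and 31.9 cpm with EEO and at 34.7, 28.8 and 30.4 cpm without EEO. These 3 genes kept close levels among the replicates of each group, and in Cpr65Au and Cpr57A the 6 libraries of the KrIf-1 cross lay above the other 6 without overlap. This separation was not particular to the steady genes. It also held in other members, among them Cpr47Ee, Cpr73D, Cpr47Ea, Cpr47Ef, Cpr76Bc and Cpr60D. By small margins it held in Cpr97Eb, Cpr49Ae and Cpr62Bb, which varied more. The share of all features with such separation was not counted. Cpr57A is annotated over the odorant-binding protein gene Obp57d, with which it may share reads.

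The lens gene Cpr72Ec was at 93.6, 80.0 and 71.5 cpm in mod07570/L8, at 90.2, 115 and 109 cpm in mod07570/+, at 37.4, 178 and 146 cpm with EEO and at 219, 211 and 241 cpm without EEO. Its 3 no-EEO libraries were the highest of the 12 and the EEO replicate 1 was the lowest. Cpr66D, the other member known from the lens, was far lower, between 1.04 and 3.78 cpm in all 12 heads, and in the 3 head comparisons its groups overlapped except that the EEO libraries lay above the no-EEO libraries.

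The variable genes spanned a far wider range within the heads. Cpr100A was at 6.19, 13.2 and 23.7 cpm in mod07570/L8, at 6.80, 12.4 and 135 cpm in mod07570/+, at 861, 248 and 82.3 cpm with EEO and at 237, 230.4 and 147 cpm without EEO. Cpr62Bc was at 1.82, 1.67 and 3.89 cpm in mod07570/L8, at 1.77, 3.87 and 46.0 cpm in mod07570/+, at 387, 81.3 and 13.7 cpm with EEO and at 61.8, 68.9 and 27.7 cpm without EEO. In both genes the mod07570/+ replicate 3 was far above replicates 1 and 2 of its group, and the EEO replicate 1 was the highest of all 12 heads. Cpr97Eb was at 2.62, 3.63 and 4.55 cpm in mod07570/L8, at 2.90, 4.91 and 31.6 cpm in mod07570/+, at 231, 72.7 and 32.3 cpm with EEO and at 67.3, 61.9 and 38.4 cpm without EEO. Its 5 highest libraries came in the same order as those of Cpr100A.

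The remaining 3 of the 10 most abundant genes were less extreme. Cpr49Ae was at 34.5, 45.0 and 51.9 cpm in mod07570/L8, at 43.8, 43.5 and 90.5 cpm in mod07570/+, at 239, 122 and 90.9 cpm with EEO and at 136, 134 and 149.6 cpm without EEO. Cpr62Bb was at 14.9, 13.6 and 17.9 cpm in mod07570/L8, at 8.00, 11.2 and 26.4 cpm in mod07570/+, at 78.3, 34.1 and 27.3 cpm with EEO and at 36.2, 46.8 and 34.3 cpm without EEO. Cpr49Ag was at 14.3, 14.7 and 19.7 cpm in mod07570/L8, at 5.45, 5.21 and 14.0 cpm in mod07570/+, at 49.4, 11.4 and 8.30 cpm with EEO and at 20.4, 13.2 and 25.2 cpm without EEO. In each of these genes too the mod07570/+ replicate 3 and the EEO replicate 1 were the highest of their groups.

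**Figure D1:**
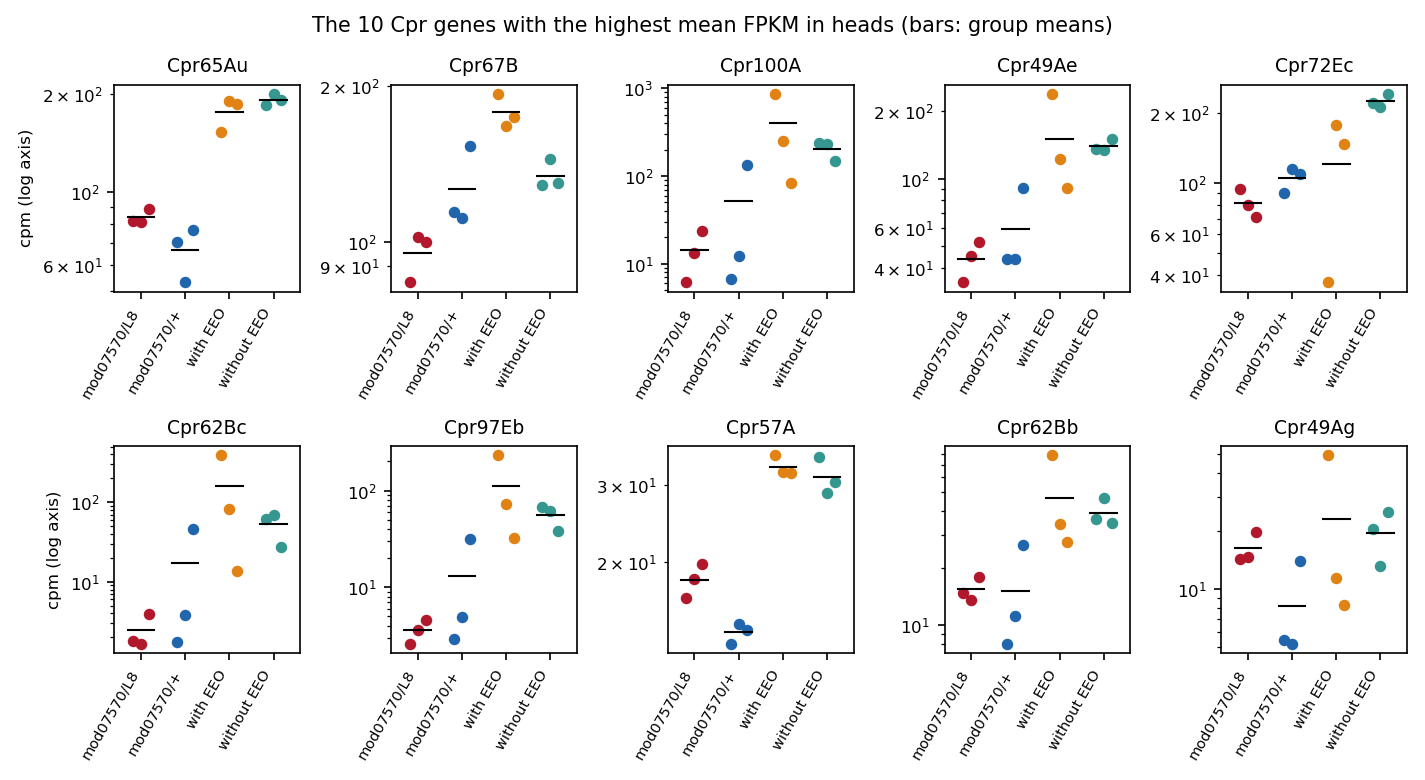
Level in cpm, on a log axis that differs between panels, of the 10 Cpr genes with the highest mean FPKM in heads. Points are the 3 libraries of each head group in the order of their replicate numbers and bars are group means. Cpr65Au and Cpr57A show tight groups, whereas in Cpr100A, Cpr62Bc and Cpr97Eb the mod07570/+ replicate 3 and the EEO replicate 1 stand above the rest of their groups.

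The summed Cpr level showed the same libraries. It was 426, 458 and 489 cpm in the mod07570/L8 heads (458 ± 31.7, SD, n = 3) and 432, 444 and 889 cpm in the mod07570/+ heads (589 ± 260.5, SD, n = 3). In heads with EEO it was 3085, 1437 and 994 cpm (1839 ± 1102, SD, n = 3), and in heads without EEO 1389.7, 1424 and 1245 cpm (1353 ± 95.2, SD, n = 3). The EEO replicate 1 thus held 3.1-fold more Cpr RNA than the EEO replicate 3, and the mod07570/+ replicate 3 held 2.0-fold more than replicate 2 of its group. In bulk heads, more cells of a cuticle-forming type and more RNA in each such cell cannot be told apart.

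Within the EEO group, the spread was wider for Cpr genes than for the typical gene. The highest library of a member exceeded the lowest by a median of 2.63-fold among the 30 members tested in that comparison, against 1.31-fold over all 10137 genes and transposons tested there. The EEO replicate 1 was the highest of the group for 23 of the 30 members and for 37.3% of all features. Within mod07570/+, the median was 2.57-fold against 1.40-fold, and replicate 3 was the highest for 20 of 22 members and for 37.3% of features. The corresponding medians were 1.47-fold against 1.12-fold in heads without EEO and 1.41-fold against 1.13-fold in mod07570/L8. Members share their libraries, so these counts describe 2 libraries and do not amount to independent observations.

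The members differed in how strongly they took part. In heads with EEO, 13 of the 30 had a highest library over 4-fold above the lowest, 12 stayed under 2-fold and 5 lay between. Those under 2-fold included Cpr65Au, Cpr67B, Cpr57A, Cpr73D and Cpr47Ee, and also Cpr76Bc, which spread 5.19-fold in mod07570/+. The widest spreads with EEO were those of Cpr97Ea (44.5-fold), Cpr76Bb (39.4-fold), Cpr62Bc (28.3-fold) and Cpr92F (25.5-fold). Cpr97Ea, Cpr92F and Cpr76Bd, which spread 12.6-fold, are given in full, chosen after their values were seen. Cpr97Ea was at 233, 37.1 and 5.24 cpm in the 3 EEO libraries and at 0.142, 0.446 and 20.7 cpm in the 3 mod07570/+ libraries. Cpr76Bd was at 155, 36.8 and 12.4 cpm with EEO and at 0.567, 0.818 and 20.5 cpm in mod07570/+, and Cpr92F was at 105, 29.9 and 4.12 cpm with EEO and at 0.567, 0.967 and 22.2 cpm in mod07570/+. In mod07570/+ all 3 genes were thus under 1 cpm in 2 libraries and at 20.5 cpm or more in the third. Cpr72Ec was the only one of the 13 whose level in the EEO replicate 1 was the lowest of its group.

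**Figure D2:**
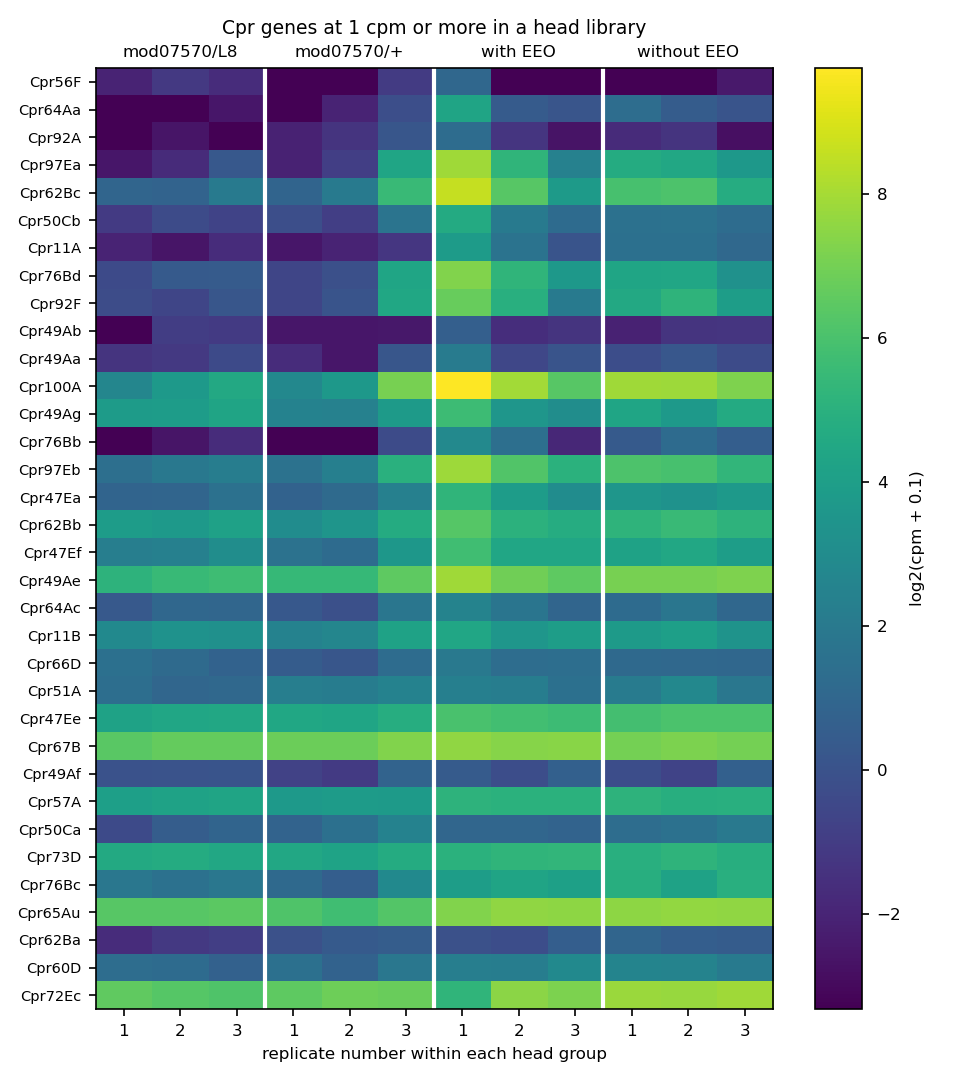
Level of the 34 Cpr genes that reached 1 cpm in a head library, as log2(cpm + 0.1), in each of the 12 head libraries. Genes are ordered by the ratio of the EEO replicate 1 to the mean of the EEO replicates 2 and 3, and 24 of the 34 have their highest level of all 12 in the EEO replicate 1. Cpr72Ec, in the bottom row, is the gene with the lowest ratio (0.231).

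Some other groups of cuticle genes moved with these libraries and some did not. Of 10 listed genes of chitin synthesis and assembly, 9 had a mean of 1 cpm or more in heads with EEO, and 8 of these were highest in the EEO replicate 1. In mod07570/+, 9 of 10 were highest in replicate 3. The chitin synthase gene kkv was at 132, 36.4 and 11.1 cpm in the EEO libraries and at 3.26, 2.98 and 26.9 cpm in mod07570/+. The chitin deacetylase gene serp was at 323, 122 and 32.5 cpm with EEO and at 8.64, 15.0 and 67.2 cpm in mod07570/+. Both thus ranked the EEO libraries as Cpr100A did and were highest in the mod07570/+ replicate 3. Of the peritrophin-like genes, which encode chitin-binding proteins such as Gasp, 4 of 4 were highest in the EEO replicate 1 and 3 of 4 in the mod07570/+ replicate 3. Among the 28 other genes with the Rebers and Riddiford consensus (the Lcp, Ccp and Acp genes, resilin and Crys among them), 9 of 10 and 5 of 6 were. The Tweedle genes, which encode another kind of cuticle protein, had 1 of 3 highest and 2 of 3 lowest in the EEO replicate 1, and 2 of 3 highest and 1 of 3 lowest in the mod07570/+ replicate 3. Chitinase-like genes had 5 of 12 highest and 4 lowest in the EEO replicate 1, and 2 of 15 highest and 5 lowest in the mod07570/+ replicate 3. Cuticle tanning genes had 11 of 15 highest and 4 lowest in the former, and 12 of 15 highest and 2 lowest in the latter. Ecdysone response regulators had 3 of 12 highest and 8 lowest in the EEO replicate 1. In the mod07570/+ replicate 3 they had 5 of 12 highest and none lowest.

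Markers of other cell types also moved in part. All 4 muscle genes were highest in the EEO replicate 1 and in the mod07570/+ replicate 3 within their groups, and their summed level was 1682 to 4048 cpm in mod07570/+ and 4451 to 7270 cpm with EEO. All 5 neuronal genes were lowest in the EEO replicate 1 and all 5 were highest in the mod07570/+ replicate 3. Of the 8 photoreceptor genes, 3 were highest and 2 lowest in the EEO replicate 1, whereas 7 of 8 were highest in the mod07570/+ replicate 3. Their summed level spanned 16947 to 18705 cpm with EEO and 25582 to 28190 cpm in mod07570/+. Of the 5 head fat body genes, 4 were highest and none lowest in the EEO replicate 1. In the mod07570/+ replicate 3 none of them was highest and 1 was lowest. Of the 3 glial genes, 1 was highest and 2 were lowest in the former, and 2 were highest in the latter. Both haemocyte genes at 1 cpm or more were lowest in the former and highest in the latter. The part of tissue composition or developmental age in the Cpr levels of these libraries was not tested.

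**Figure D3:**
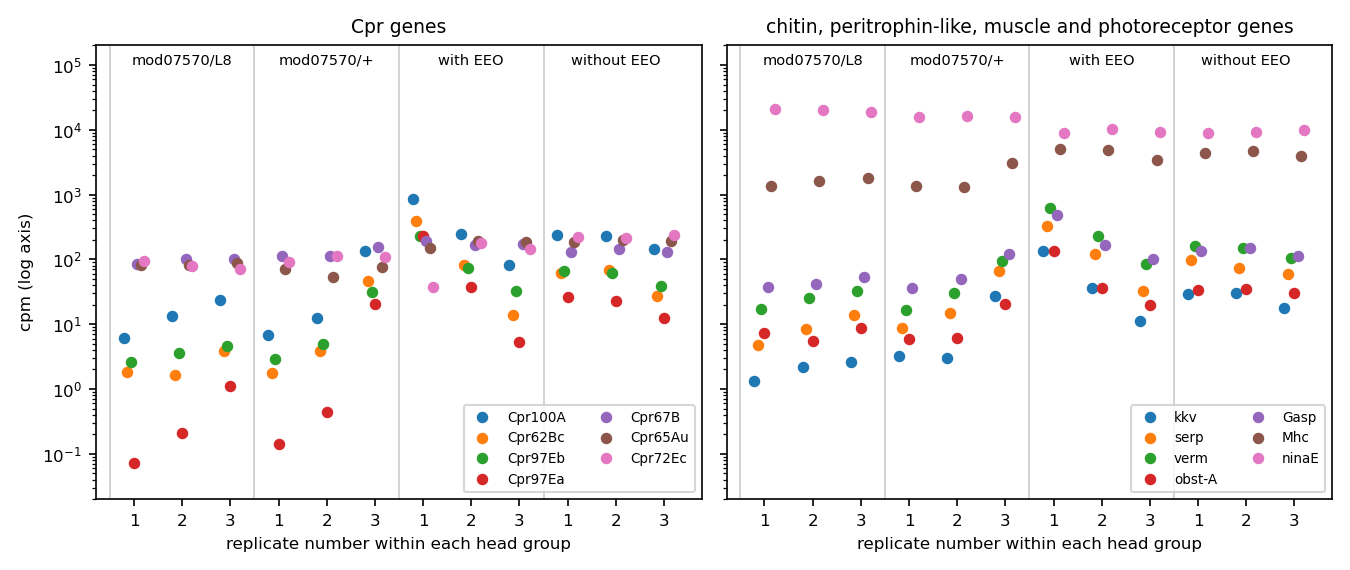
Level in cpm on a log axis of 7 Cpr genes (left) and of 7 genes of chitin synthesis and modification, peritrophin-like proteins, muscle and photoreceptors (right) in each head library. Each point is 1 library. Cpr100A, Cpr62Bc, Cpr97Eb and Cpr97Ea rise and fall with kkv, serp, verm and obst-A, with the EEO replicate 1 at the top, whereas Cpr67B, Cpr65Au and ninaE vary less within groups.

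The first head comparison asked what the loss of Mod changed, setting the mod07570/L8 heads against mod07570/+. No Cpr gene passed edgeR's quasi-likelihood test at an adjusted p under 0.05 (Benjamini-Hochberg over all 9999 features tested), among which 3.53% passed. A level of 1 cpm or more in 3 or more of the 6 libraries was required for testing, which 22 of the 70 members met, and 7 of these had an unadjusted p under 0.05. DESeq2 called 1, Cpr51A, where 6.48% of features passed in it. The median log2 fold change of the 22 was -0.21 against -0.02 over all features, and 15 of the 22 were negative. Without the mod07570/+ replicate 3 the median was 0.25, 13 of 21 members were positive and 1 was called higher, Cpr49Ag, where 1.62% of features passed. The direction of the family as a whole thus rested on that library. The groups did not overlap for 5 members. Higher in all 3 mutants were 3, Cpr49Ag, Cpr57A and Cpr65Au, compared with 8.42% of features, and lower were 2, Cpr51A and Cpr67B, compared with 11.6% of features.

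Cpr51A came closest. It was at 2.55, 1.88 and 2.05 cpm in the mod07570/L8 heads (2.16 ± 0.346, SD, n = 3) and at 4.67, 4.39 and 5.54 cpm in mod07570/+ (4.87 ± 0.598, SD, n = 3), with no overlap. The log2 fold change was -1.12 (SE 0.23), and the adjusted p was 0.0511 by edgeR's quasi-likelihood test. It passed under total-count scaling (0.0442), in DESeq2 (0.0247), with uniquely mapped counts (0.0356) and without the mod07570/+ replicate 2 (0.0256). It did not with DESeq2 size factors in edgeR (0.0510), effective counts (0.0501), no filter (0.0775), a replicate block (0.0802), all 12 heads in 1 fit (0.0748) or any of the other 5 libraries left out (0.0894 to 0.232). The gene is annotated over CG30197, and the strand of its reads is unknown.

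Other leading members missed the threshold by more. For Cpr57A the log2 fold change was 0.45 (SE 0.13) with an adjusted p of 0.127 in edgeR, and it passed (0.0473) only where all 12 head libraries shared 1 fit. The lens gene Cpr72Ec had a log2 fold change of -0.30 (SE 0.11) with an edgeR adjusted p of 0.216. Cpr49Ag had 1.05 (SE 0.38) with an edgeR adjusted p of 0.223, and without the mod07570/+ replicate 3 it had 1.61 with 0.0363. For Cpr100A the value was -1.74 (SE 1.07), and without the mod07570/+ replicate 3 it was 0.63, both short of the threshold.

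The second comparison set heads with EEO against heads without EEO, which come from the same cross and the same sex by their markers. Here too no member passed, among 30 tested, against 0.523% of 10137 features in edgeR. Of the 30, 3 had an unadjusted p under 0.05, and DESeq2 called 1, Cpr67B (adjusted p 0.0267), where 2.51% of features passed in it. The median log2 fold change was 0.40 against 0.01 over all features, with 23 of 30 positive. Without the EEO replicate 1 it was -0.15, with 10 of 29 positive and none past the threshold in edgeR, where 2.33% of features passed, 7 having an unadjusted p under 0.05. The excess in outgrowth heads was therefore that of 1 library, which carried 3085 cpm of Cpr RNA, whereas the EEO replicates 2 and 3 lay on either side of the no-EEO range.

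A few members separated the EEO groups. All 3 EEO libraries lay above all 3 no-EEO libraries for 2, Cpr67B and Cpr66D, and below them for 2, Cpr72Ec and Cpr50Ca, against 8.37% and 12.1% of features. Cpr67B had a mean of 178 ± 13.4 cpm with EEO and 134 ± 8.72 cpm without (SD, n = 3), a log2 fold change of 0.44 (SE 0.11) with an edgeR adjusted p of 0.217. Cpr72Ec had 121 ± 73.7 cpm with EEO and 223 ± 15.4 cpm without, a log2 fold change of -0.87 (SE 0.49) with an edgeR adjusted p of 0.614. Leaving out each of the 6 libraries in turn moved this change between -1.27 and -0.45, with the adjusted p between 0.0846 and 0.937. Of the other lens genes, retinin was at 1539, 1376 and 785 cpm with EEO and at 1127, 1429 and 1193 cpm without, and Crys was at 216, 73.2 and 18.6 cpm with EEO and at 91.7, 74.2 and 68.4 cpm without. Both overlapped between the groups.

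The third comparison set heads without EEO against mod07570/+ heads. It joins the KrIf-1 cross, the sex marked by Yp1 and roX1, the dose of mod and the Kr allele, whose parts cannot be told apart. It shares its mod07570/+ libraries with the first comparison and its no-EEO libraries with the second. Kr itself was at 4.31 to 6.14 cpm in the 6 cross libraries and at 1.95 to 2.84 cpm in the other 6. Of the 28 members tested, 8 rose and none fell in edgeR at an adjusted p under 0.05, where 25.1% of all 10139 features passed, 15.1% as higher and 9.96% as lower. One of the 8, Cpr11A, met the filter only through the no-EEO libraries and so had to differ, as did Cpr76Bb, which was not called. The median log2 fold change of the 28 was 1.09 against 0.02 over all features, and 25 were positive. All 3 no-EEO libraries lay above all 3 mod07570/+ libraries for 15 of the 28, against 38.4% of features, and below them for none, against 10.1%. The 15, the 25 and the median all include Cpr11A and Cpr76Bb, whose separation was fixed by the filter.

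Those with tight groups were the most secure against leaving out a library. Cpr72Ec rose from 105 ± 12.8 to 223 ± 15.4 cpm (SD, n = 3), a log2 fold change of 0.93 (SE 0.08) with an edgeR adjusted p of 0.00114. Cpr57A rose from 13.9 ± 0.728 to 31.3 ± 3.04 cpm, 1.00 (SE 0.11) with 0.00318 on the same scale and test. Cpr65Au rose from 66.7 ± 12.2 to 192 ± 7.42 cpm, 1.34 (SE 0.18) with 0.00506. Cpr47Ee was at 22.3, 20.4 and 28.2 cpm in mod07570/+ and at 57.7, 65.8 and 66.0 cpm without EEO, 1.24 (SE 0.15) with an edgeR adjusted p of 0.00413. These 4 genes stayed past the threshold whichever library was left out, though Cpr72Ec did not (0.0960) where all 12 head libraries shared 1 fit. With unique counts Cpr72Ec, Cpr65Au and Cpr47Ee kept the call, whereas Cpr57A was not among the genes tested. Unique counts are kept per transcript, and Cpr57A has 2 annotated transcripts. Reads shared between these and reads shared with another gene were not told apart.

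The other 4 calls rested on lower or more scattered values. Cpr11A was at 0.0708, 0.149 and 0.312 cpm in mod07570/+ and at 2.75, 2.76 and 2.03 cpm without EEO, a log2 fold change of 3.62 (SE 0.43) with an edgeR adjusted p of 0.00377. Cpr76Bc was at 2.12, 1.41 and 7.33 cpm and at 29.7, 18.1 and 30.6 cpm, 2.69 (SE 0.57) with 0.0185. Cpr47Ea, annotated over the odorant receptor gene Or47a, was at 1.63, 2.16 and 5.07 cpm and at 11.5, 10.1 and 12.8 cpm, 1.80 (SE 0.39) with 0.0188 in edgeR. In all 3 the groups were apart, although the mod07570/+ replicate 3 was again the highest of its group. Cpr49Ae changed by 1.07 (SE 0.27) with an edgeR adjusted p of 0.0316. Without any 1 of the no-EEO libraries Cpr11A no longer met the filter. Cpr76Bc, Cpr47Ea and Cpr49Ae lost the call without any 1 of the no-EEO libraries, and Cpr76Bc and Cpr49Ae also without the mod07570/+ replicate 1. Without a no-EEO library only 582 to 709 features of any kind were called, against 2540 with all 6 libraries.

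Leaving out the mod07570/+ replicate 3 raised the count from 8 to 20 of 28, with a median log2 fold change of 1.56, where 29.4% of 10008 features passed in edgeR, 18.1% as higher. Of these 20, 6 (Cpr11A, Cpr50Cb, Cpr76Bb, Cpr76Bd, Cpr92F and Cpr97Ea) were under 1 cpm in both remaining mod07570/+ libraries, met the filter only through the no-EEO libraries and so had to differ, and the other 14 calls were among 22 members. Cpr100A then had a log2 fold change of 4.23 (SE 0.32) with an edgeR adjusted p of 0.00266, against 1.86 (SE 1.00) with 0.206 over all 6 libraries. Leaving out each of the 3 no-EEO libraries in turn gave 4 calls of 26 members tested each time. Over all features these fits called 582 of 10014, 709 of 10020 and 685 of 10010, so calls fell for features in general. Leaving out the mod07570/+ replicate 1 gave 6 of 28, where 1978 of 10048 features were called. Leaving out the mod07570/+ replicate 2 gave 8 rises and 1 fall, Cpr67B, of 28, where 3081 of 10014 features were called. Cpr67B and Cpr51A had log2 fold changes of -0.09 (SE 0.14) and -0.18 (SE 0.30) over all libraries. The muscle genes, at 4997 to 5989 cpm in the no-EEO libraries and 1682 to 4048 cpm in mod07570/+, and the 8 photoreceptor genes, at 17081 to 18732 and 25582 to 28190 cpm, also differed between these groups, and the part of tissue composition was not tested.

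**Figure D4:**
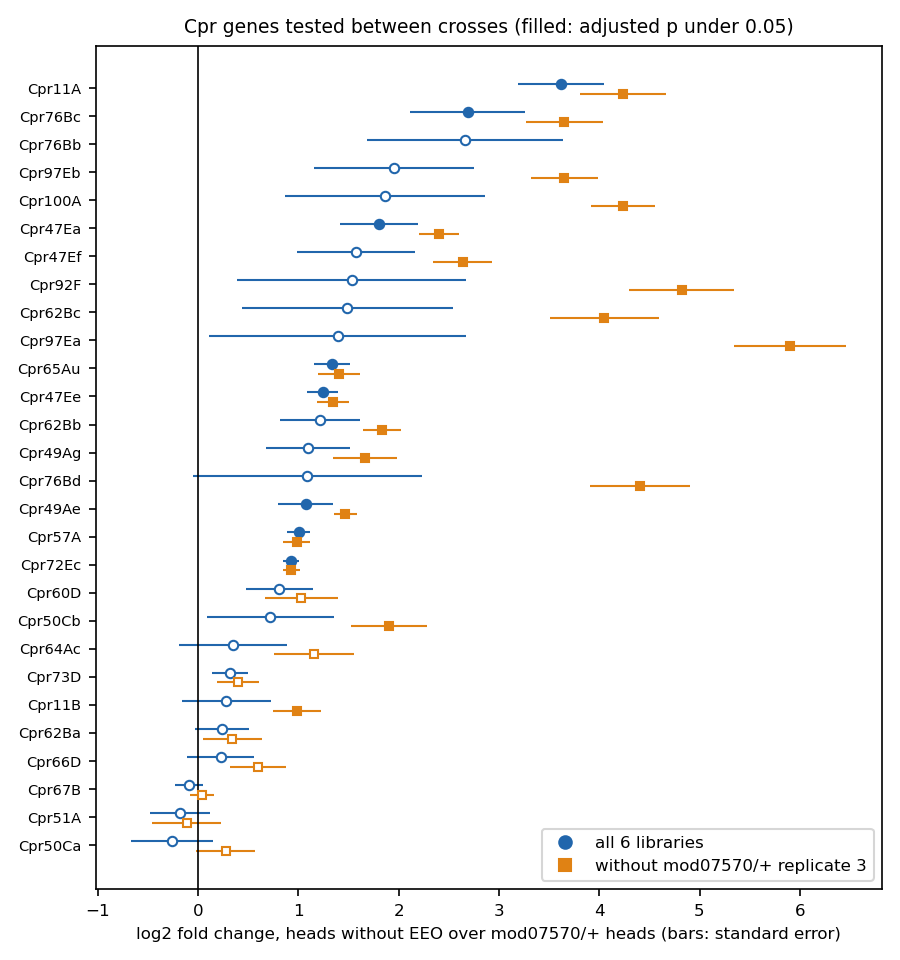
Log2 fold change with its standard error for the 28 Cpr genes tested between heads without EEO and mod07570/+ heads, from all 6 libraries (circles) and without the mod07570/+ replicate 3 (squares), filled where the adjusted p was under 0.05. Cpr76Bb has no square because its remaining mod07570/+ libraries were at 0. Filled circles number 8, and Cpr72Ec, Cpr57A, Cpr65Au and Cpr47Ee keep their place in both fits.

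Ovaries held little Cpr RNA. The summed level was 1.92, 2.44 and 2.78 cpm in mod07570/+ (2.38 ± 0.431, SD, n = 3), 3.53, 3.22 and 2.90 cpm in modL8/+ (3.22 ± 0.316) and 8.74, 7.96 and 7.28 cpm in mod07570/L8 (7.99 ± 0.729), so that the 3 mutant libraries lay above the other 6. Markers of other cell types differed between these ovaries too. The muscle genes summed to 95.5 to 104 cpm in the mutants, 49.5 to 50.6 cpm in mod07570/+ and 31.0 to 38.0 cpm in modL8/+, the 4 follicle cell genes to 14162 to 14752, 2480 to 2526 and 5062 to 5220 cpm, and the 4 gut genes to at most 0.0567, 66.2 to 73.2 and 54.6 to 54.9 cpm. Their part in the Cpr level was not tested. Only 5 genes reached 1 cpm in any ovary library, Cpr66D, Cpr67Fb, Cpr72Ec, Cpr76Bb and Cpr97Eb. The filter left 3 members to test between mutant and mod07570/+ ovaries, Cpr76Bb, Cpr72Ec and Cpr67Fb. Of these the first 2 were called higher, but both had passed only through the mutants and so had to differ, and 77.6% of all 8295 features were called in this comparison (38.5% as higher), in which replicates differed little (common biological coefficient of variation 0.0240).

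Cpr76Bb was the clearest ovary value. It had 34, 30 and 25 counts in the mutant libraries (1.93, 1.63 and 1.48 cpm), none in the 3 mod07570/+ libraries, and 2 counts in 1 of the 3 modL8/+ libraries. Against a floor of 3 counts per library, its mean of 1.68 ± 0.228 cpm (SD, n = 3) was at least 7.28-fold higher than in mod07570/+. In heads the same gene was at 0, 0.0697 and 0.220 cpm in the mutants and at 0, 0 and 0.702 cpm in mod07570/+, all at or near the floor.

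The remaining ovary genes rested on low counts. Cpr72Ec had 21, 31 and 18 counts in the mutants (1.19, 1.69 and 1.07 cpm), 8, 16 and 7 in mod07570/+ (0.616, 0.975 and 0.423 cpm) and 9, 9 and 2 in modL8/+. Its log2 fold change was 1.05 (SE 0.36) with an edgeR adjusted p of 0.0107, and without the mod07570/+ replicate 3 it was 0.78 with 0.0815. Cpr97Eb was at 0.794, 0.981 and 0.769 cpm in the mutants, at 0, 0 and 0.121 cpm in mod07570/+ and at 0.544, 0.277 and 1.03 cpm in modL8/+. Cpr66D, which did not meet the filter, was at 1.13, 0.926 and 0.651 cpm in the mutants, at 0, 0.366 and 0.121 cpm in mod07570/+ and at 0.340, 0.111 and 0.544 cpm in modL8/+. For these 3 genes the mutants lay above mod07570/+, and for Cpr97Eb the modL8/+ libraries overlapped the mutants. The share of all features with such separation was not counted, and with 77.6% of features called here it carries little weight. Cpr67Fb, the member with the highest mean FPKM in ovaries (5.35), was at 1.59, 0.654 and 1.12 cpm in the mutants, at 0.770, 0.426 and 1.39 cpm in mod07570/+ and at 0.884, 1.22 and 0.423 cpm in modL8/+, with an adjusted p of 0.305 in edgeR. Its groups overlapped, and it is annotated over the antisense RNA gene asRNA:CR45171. Cpr57A was at 0.0545 to 0.484 cpm in the 9 ovary libraries with overlapping groups. Between modL8/+ and mod07570/+ ovaries no member met the filter, and 42.3% of 8052 features were called.

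**Figure D5:**
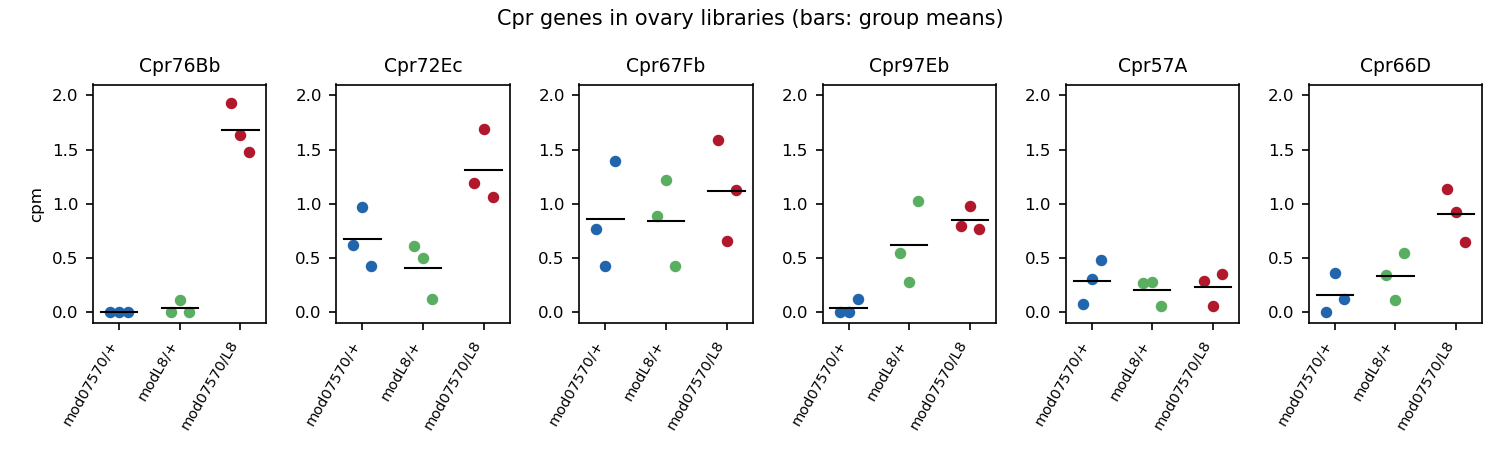
Level in cpm of 6 Cpr genes in the 3 ovary groups. Points are libraries and bars are group means. Cpr76Bb is at 1.48 cpm or more in the mutants and at 0.111 cpm or less in the other 6 libraries, whereas Cpr67Fb and Cpr57A overlap between all groups.

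Levels in heads and ovaries of the same genotype were compared in mod07570/+. All 20 members that met the filter did so only through the heads and so had to differ, and their 20 calls as higher in heads, where 89.4% of 10301 features were called and 47.2% were higher in heads, carry no weight. Since fitted folds against an absent gene depend on the prior count, they were replaced by lower bounds. For the 17 members with no count in the 3 mod07570/+ ovary libraries that had a mean of 1 cpm or more in heads, with over 3 counts in each, the heads were at least 4.86-fold (Cpr62Ba) to at least 289-fold (Cpr65Au) higher, against a floor of 3 counts per library. These members were picked by their absence from ovaries and their level in heads. A difference was thus fixed in advance, and the bounds only describe its size. Cpr72Ec, which had ovary counts above the floor, was at 90.2 to 115 cpm in heads and at 0.423 to 0.975 cpm in ovaries of this genotype.

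Whether the effect of the mutant genotype differed between tissues was tested as an interaction over the 12 libraries concerned. Of 24 members tested, 4 had a lower effect in heads than in ovaries, Cpr51A, Cpr72Ec, Cpr76Bb and Cpr97Eb, where edgeR called 24.5% of 10609 features, 18.1% in that direction. Cpr76Bb met the filter only through the 3 mutant ovaries, and its call was fixed by that. Only Cpr72Ec had ovary counts above the floor in both genotypes, 18 to 31 in the mutants and 7 to 16 in mod07570/+. It met the filter of the interaction through its heads. In the ovary comparison it passed only through the mutants and lost the call without the mod07570/+ replicate 3, so its ovary change is not secure. Its log2 fold change of -0.30 in heads and 1.05 in ovaries differed by -1.37 (SE 0.33), with an edgeR adjusted p of 0.0105.

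Other genes of cuticle formation were tested in the same comparisons. In mod07570/L8 against mod07570/+ heads, where 3.53% of features passed, the calls were 1 lower of 2 tested among the other Rebers and Riddiford genes (Ccp84Ag), 1 lower of 3 Tweedle genes (TwdlG), none of 4 peritrophin-like genes, none of 10 genes of chitin synthesis and assembly, 1 lower of 15 chitinase-like genes (Cht4), and 2 higher of 15 tanning genes (b and e). Ccp84Ag was at 2.91, 2.65 and 3.52 cpm in the mutants and at 8.43, 8.78 and 9.28 cpm in mod07570/+, with a log2 fold change of -1.50 (SE 0.19) and an edgeR adjusted p of 0.00981. The tanning gene e (ebony) was at 152, 150.1 and 159 cpm and at 52.6, 59.6 and 83.7 cpm. Neither pair of groups overlapped. Of the ecdysone response regulators, 1 of 12 was higher (Eip75B).

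Between heads with and without EEO none of the listed cuticle genes was called, among 8 other Rebers and Riddiford genes, 3 Tweedle, 4 peritrophin-like, 9 chitin synthesis, 12 chitinase-like and 15 tanning genes tested. Their median log2 fold changes were 0.54, -0.06, 0.96, 0.67, 0.11 and 0.22, against 0.01 over all features. In heads without EEO against mod07570/+ heads, where 25.1% of features passed, 15.1% as higher and 9.96% as lower, 3 chitin synthesis genes were higher (mmy, rtv and Gfat1) and 1 lower (Chs2) of 10, 5 tanning genes were higher (e, speck, yellow-c, yellow-e and yellow-h) and 2 lower (t and y) of 16, and 3 chitinase-like genes were lower (Idgf1, Idgf2 and Idgf3) of 15. Ccp84Ag and TwdlG were lower, and none of the 4 peritrophin-like genes was called. In that comparison the median log2 fold change was 0.76 for chitin synthesis and assembly and 0.89 for the peritrophin-like genes, against 1.09 for the Cpr genes.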

How the data were processed

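Poly(A) mRNA from heads and ovaries was sequenced as paired ends. The authors aligned the reads with Bowtie 2 to RefSeq transcripts and transposon consensus sequences and quantified them with eXpress (versions not given in the sources used here; GEO's labels list the genome build dm3, and the library kit does not mark the strand). The deposited tables hold estimated counts, which need not be whole, together with unique counts, effective counts and FPKM for 34563 targets, all calculated by the authors' run of eXpress. Estimated counts were summed per gene with gene names from a RefSeq table of the Release 6 assembly, which matched 34033 of 34437 RefSeq targets (unmatched targets held at most 0.322% of a library's counts), and were rounded to whole numbers. Gene overlaps were taken from the same table, and no coordinates are given because the builds differ. The H3K9me3 peak lists and the immunoprecipitation samples were not used here.

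Groups followed GEO's labels, with 3 libraries each, described as biological replicates by the study. The main test was edgeR's quasi-likelihood test (edgeR 4.0.16, R 4.3.3) on the 2 groups compared, with TMM scaling, genes of at least 1 cpm in at least 3 libraries, and Benjamini-Hochberg adjustment over all features at 0.05. The interaction used the 4 groups concerned. Alternatives were total-count and DESeq2 scaling, DESeq2 1.42.0, no filter, unique or effective counts, 1 fit per tissue, a 2-fold minimum, a replicate block and each library left out. The tests were tried on simulated counts. Values named are those of the 10 members with the highest mean FPKM in heads, members past the threshold in head comparisons, the 5 with the highest mean FPKM in ovaries, and Cpr72Ec. Members, lists and tests were chosen with earlier results of these data known. Intervals cover the spread between libraries, and bounds use a floor of 3 counts per library, which covers counting error only. Python 3.11.15, numpy 2.4.6 and pandas 2.3.3 were used for sums and matplotlib 3.10.9 for plots.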

Additional observations from a re-analysis of the deposited data

Results flagged for a closer look

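The effect of the mod07570/L8 genotype differed between heads and ovaries for 4 of 24 Cpr genes tested by the interaction test in edgeR (adjusted p 0.00325 for Cpr51A, 0.0105 for Cpr72Ec, 0.0240 for Cpr76Bb and 0.0415 for Cpr97Eb, n = 3 libraries in each of 4 groups). That test called 24.5% of all 10609 features, 18.1% with a lower effect in heads as in these 4, so the count does not set the Cpr genes apart. For Cpr51A the mod07570/+ ovaries had no count and the mutant ovaries had 2, 2 and 4 counts, while its heads fell short of the threshold in the opposite direction. Cpr76Bb met the filter only through the mutant ovaries, where it is high, so its call was fixed by the filter. For Cpr76Bb and Cpr97Eb the mod07570/+ ovaries had 0 and 2 counts in all, so that the size of the difference cannot be read. Cpr51A and Cpr72Ec kept the call when each of the 12 libraries was left out, Cpr76Bb in 7 of the 9 fits in which it met the filter, and Cpr97Eb in 3 of 12.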

How the results depend on the processing

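No Cpr gene called in the main edgeR fit of a comparison changed direction under the alternatives that were run. Cpr67B, called lower between crosses only without the mod07570/+ replicate 2, had a log2 fold change of 0.09 there under total-count scaling. The median of all members changed sign in the first head comparison without the mod07570/+ replicate 3 (-0.21 to 0.25) and in the second without the EEO replicate 1 (0.40 to -0.15). The count of Cpr genes called in mod07570/L8 against mod07570/+ heads was 0 in edgeR, 1 with total-count scaling, DESeq2, unique counts or 1 fit for all heads, and 0 to 1 when each library was left out. Over all features, 353 of 9999 were called in edgeR, 358, 648 and 473 of 9999 with total-count scaling, DESeq2 and 1 fit, and 286 of 9166 with unique counts. With a library left out, 66 of 9918 to 464 of 9852 features were called. For heads with against without EEO it was 0 in edgeR (53 of 10137 features), 1 in DESeq2 (254 of 10137 features), and 0 in each fit that left out a library (20 of 10072 to 234 of 10039 features). For heads without EEO against mod07570/+ it was 8 (2540 of 10139 features), and 4 to 20 when a library was left out (582 to 3081 of 10014 features). In mutant ovaries it was 2 in edgeR, 6 without a filter, 4 with unique counts, 1 with effective counts and 0 to 2 when a library was left out. Over all features these fits called 6434 of 8295, 7094 of 12375, 4048 of 7248, 6468 of 8405, and 5907 of 8070 to 6084 of 8131. In modL8/+ ovaries it was 0 in edgeR (3404 of 8052 features) and 1 without a filter (3571 of 11936 features) or with unique counts (1396 of 6996 features). Between tissues it was 20, 37 without a filter and 0 to 20 when a library was left out, since a filter of 3 libraries cannot be met through 2. Over all features these fits called 9213 of 10301, 10473 of 14000, and 6812 of 8124 to 8646 of 10029. The interaction gave 4 (2604 of 10609 features), and 2 to 6 when a library was left out (2101 of 10528 to 4067 of 10531 features). Total-count scaling shifted the median log2 fold change of all features from 0.02 to 0.19 in heads without EEO against mod07570/+, and from 0.14 to -0.48 between tissues. Where the cause of a change is not given, it was not tested.

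Same-numbered replicates did not deviate together throughout. Their correlations were 0.0447 to 0.194 in the first head comparison, all positive, -0.0143 to 0.258 in the second and -0.0958 to 0.0897 in the third. The numbers were not taken as pairs. With the replicate number as a block the counts were 0, 0, 9, 2, 0, 20 and 4 in the order above. Over all features these fits called 294 of 9999, 43 of 10137, 1600 of 10139, 6316 of 8295, 3192 of 8052, 8946 of 10301 and 2347 of 10609. With 3 libraries a group, genes under about 1 cpm could not be tested, and most ovary values rest on fewer than 35 counts.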
